A study of Homo sapiens with 9 samples.

Results

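The integrin and laminin subunit genes are the genes for the chains of the main receptors that hold cells to the extracellular matrix and for the chains of the main adhesive proteins of the basement membrane. Members were taken by gene symbol alone, as every integrin alpha or beta subunit symbol (ITGA, ITGB) and every laminin alpha, beta or gamma chain symbol (LAMA, LAMB, LAMC) in the count table. No measured value enters the rule, but the set was chosen with earlier results of these data known. The rule found 38 of 26475 symbols, of which 26 were integrin genes (18 alpha, 8 beta) and 12 were laminin genes.

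RNA was sequenced from A375 cells, an established human BRAF-mutant melanoma line, kept for 24 h in DMSO vehicle, in 5 µM TP-472 or in 10 µM TP-472, with 3 libraries per group and 9 libraries in all. TP-472 is a small molecule that binds the bromodomains of BRD9 and BRD7, acetyl-lysine readers that sit in chromatin remodelling complexes. The comparisons ask how the inhibitor changes the expression of matrix and adhesion genes and whether the change depends on dose. All groups came from 1 cell line, which limits the groups as a model of melanoma, and the 2 dose comparisons share the DMSO libraries.

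An integrin is a pair of 1 alpha and 1 beta chain that spans the plasma membrane. The alpha chain largely sets which matrix protein is bound, and the beta chain tail connects to the cytoskeleton, to actin for most beta chains and to keratin filaments for beta 4. A laminin is a cross-shaped trimer of 1 alpha, 1 beta and 1 gamma chain, named by the numbers of its chains, and secreted laminins polymerise into the scaffold of the basement membrane to which integrins of the laminin-binding class attach. In melanoma, integrins and the matrix they bind are known for their part in invasion and in survival signalling.

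The libraries held 42483091 to 51298130 expected counts, and ribosomal RNA symbols took 8.2% to 19.9% of them. Of 8 melanocytic markers 4 had a mean of at least 1 CPM (library-size-scaled read counts) in DMSO, with SOX10 between 363 and 425.5 CPM over the 9 libraries, while TYR was at 0 in every library. The label of a melanoma line thus stood on SOX10 and MITF, and the pigment genes TYR, DCT and MLANA were at or near 0. Among leukocyte markers, CD3E and MS4A1 were at 0 in every library and PTPRC reached at most 0.537 CPM. One library stood apart: 10 µM replicate 1 deviated from the other 2 libraries of its group in a way that followed transcript length and GC content, which together explained 10.3% of the variance of that deviation (4.47% and 5.16% in the other 2 libraries of the group, at most 0.456% in the DMSO and 5 µM libraries). Each library was set against the mean of the other 2 of its group, so replicate 1 also enters the 4.47% and 5.16%. The median member was 0.46 log2 units lower in 10 µM replicate 1 (a deviation of -0.46), where the median deviation of all tested genes was 0.0115. Of the 35 tested members, 21 had their lowest 10 µM value there, and the share over all genes was not computed. Calls at 10 µM are therefore given with and without this replicate, and the part of length and GC content in these results was not tested beyond the values given.

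Expression is given as CPM on TMM-scaled library sizes (a scaling factor per library that assumes most genes do not change), and levels of different genes were compared only as CPM per kilobase of annotated exon. A gene was called lower or higher where edgeR's quasi-likelihood test over all 16417 tested genes gave a Benjamini-Hochberg adjusted p under 0.05 and a fold of at least 1.5; values after ± are standard errors (SE) for log2 fold changes and standard deviations (SD, n = 3) for levels. Of the 38 members, 35 passed the filter on low counts (24 integrins and 11 laminins), and the other 3, ITGA2B, ITGAL and LAMB4, stayed at or below 0.367 CPM in every library.

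TP-472 lowered many of the abundant chains of both families, and most calls came at the higher dose. The beta 4 integrin gene ITGB4 fell 1.77-fold at 5 µM and 5.66-fold at 10 µM, the beta 3 gene ITGB3 2.44-fold and 4.13-fold, and the laminin gene LAMB1 1.54-fold and 2.55-fold, while LAMA5 was called at 10 µM alone, at 2.92-fold. ITGB7, a leukocyte integrin gene, rose 2.34-fold at 5 µM. The SE of each log2 fold change stands with the values by library.

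At 5 µM, 6 members were called lower (ITGA5, ITGA9, ITGA10, ITGB3, ITGB4 and LAMB1), against 2.72% of all tested genes, and 1 was called higher (ITGB7), against 2.14%. At 10 µM, 18 members were called lower (ITGA1, ITGA3, ITGA4, ITGA5, ITGA6, ITGA7, ITGA9, ITGA10, ITGA11, ITGB1, ITGB3, ITGB4, ITGB5, LAMA2, LAMA4, LAMA5, LAMB1 and LAMC1), against 10.5% of all tested genes, and 4 were called higher (ITGAE, ITGAM, ITGAX and LAMC3), against 8.57%. Between the doses, 8 members were called lower at 10 µM than at 5 µM (ITGA1, ITGA6, ITGA11, ITGB4, ITGB5, ITGB7, LAMA5 and LAMB1), against 2.59% of all genes, and 0 were called higher, against 1.42%. That count of 0 came from edgeR, and DESeq2 and limma-voom also gave 0; 3 members were higher at an unadjusted p under 0.05, and 1 of them, LAMB3, also had an adjusted p under 0.05, at a fold under 1.5. The median log2 fold change of the tested members was -0.31 at 5 µM and -0.63 at 10 µM, where the medians of all tested genes were 0.00545 and 0.0107. In RNA from bulk cultures, a change in the make-up of the cell population and a change of RNA per cell cannot be told apart.

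Without 10 µM replicate 1, 14 members were called lower at 10 µM, against 11.0% of all genes tested in that fit, and 2 were called higher (LAMC3 and ITGA2), against 8.17%. The 14 were all among the 18. The 4 lost calls were ITGA3, ITGB1, LAMA2 and LAMA4, each still negative, and the median log2 fold change of the members was -0.46. The share of all counts taken by the 38 members lay between 0.805% and 0.846% in DMSO, between 0.579% and 0.642% at 5 µM, and at 0.314% in 10 µM replicate 1 against 0.427% and 0.454% in the other 2 libraries at 10 µM. The 3 ranges did not overlap, with or without that library.

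**Figure D1:**
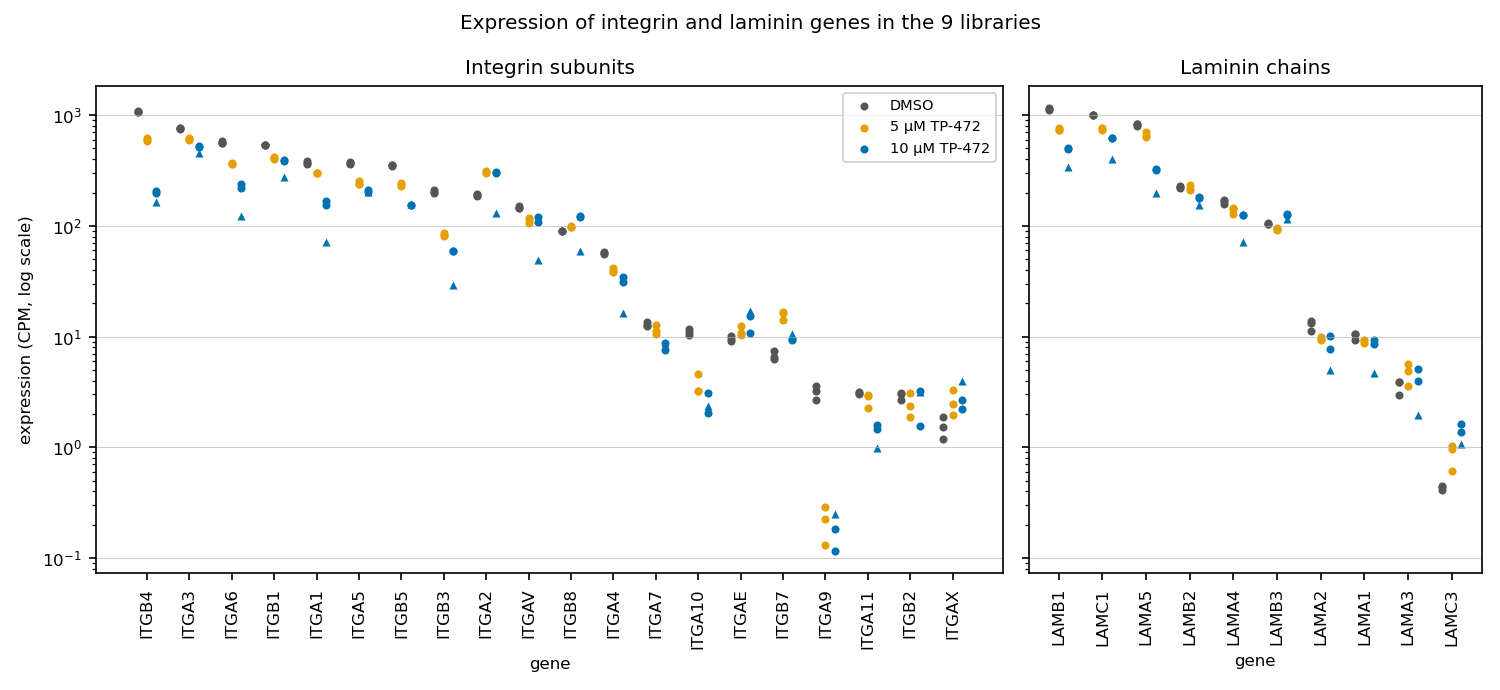
Expression (CPM, log axis) of 30 members with a mean of at least 1 CPM in some group, 1 point per library, with DMSO in grey, 5 µM in orange and 10 µM in blue; the triangle is 10 µM replicate 1. ITGB4 stepped down with dose, ITGA9 fell at 5 µM and stayed down, and the triangle lies lowest at 10 µM for many genes.

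In DMSO the integrin alpha subunits with the most transcript per length were ITGA6 at 87.2 ± 2.47 CPM per kb and ITGA3 at 77.5 ± 0.921 CPM per kb (SD, n = 3), both laminin-binding. Their order depended on the length used, since by the longest transcript ITGA3 stood at 139 and ITGA6 at 101 CPM per kb. ITGA5 (48.7 ± 1.14), ITGA2 (24.1 ± 0.750), ITGA1 (20.1 ± 0.473) and ITGAV (17.9 ± 0.440) followed on the CPM per kb scale. Among beta subunits ITGB4 led at 159 ± 0.966 CPM per kb, above ITGB1 at 89.5 ± 0.570, the partner shared by most alpha chains, then ITGB5 at 54.5 ± 1.01 and ITGB3 at 46.3 ± 1.17. LAMB1 at 139.5 ± 2.20 and LAMC1 at 119 ± 1.21 CPM per kb were the leading laminin chains, and LAMA5 at 57.5 ± 1.05 was the leading laminin alpha chain. Neighbours in each of these orders were separated by more than their SD on the exon scale, but ITGA2 and ITGA1 also changed places by the longest transcript, at 24.2 and 34.7 CPM per kb.

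The laminin-binding integrins held the largest change of an abundant receptor chain. ITGB4 (chr17:75721328-75757818, plus strand, GRCh38) encodes the beta 4 chain, which pairs only with alpha 6 and anchors epithelial cells through hemidesmosomes. It measured 1067, 1077 and 1079.5 CPM in DMSO, 609.8, 625 and 588 CPM at 5 µM and 165, 206 and 198 CPM at 10 µM. The 3 groups were separate and stepped down with dose. The log2 fold change was -0.82 ± 0.08 (adjusted p = 0.000352) at 5 µM and -2.50 ± 0.09 (adjusted p = 1.16e-07) at 10 µM, a 5.66-fold fall, and the doses differed by -1.68 ± 0.09 (adjusted p = 1.44e-05). Without 10 µM replicate 1 the 10 µM value was -2.41 (adjusted p = 2.02e-16).

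ITGA6, its only alpha partner, measured 561, 589 and 560.0 CPM in DMSO, 368, 364 and 363 CPM at 5 µM and 124, 218 and 240.3 CPM at 10 µM. Every treated library lay below every DMSO library, and the 10 µM libraries lay below those at 5 µM. It fell by 1.55 on the log2 scale at 10 µM (SE 0.20, adjusted p = 0.000259), while the 5 µM difference of -0.64 ± 0.19 (adjusted p = 0.063) missed the threshold. When 10 µM replicate 1, which enters the spread shared by all groups, was left out, the same log2 fold change of -0.64 had an SE of 0.04 and an adjusted p of 2.69e-09, a call. It was also a call with DESeq2 (adjusted p = 0.011), with the length and GC trend removed (adjusted p = 0.0038), with only the groups compared and without 10 µM replicate 3 (adjusted p = 0.043).

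ITGA3, whose product with beta 1 is a receptor for laminins 332 and 511, measured 752, 758 and 769.9 CPM in DMSO, 606, 624 and 591 CPM at 5 µM and 456, 527 and 515 CPM at 10 µM. The groups did not overlap, but the change was small, at -0.61 ± 0.07 (adjusted p = 0.00015) for 10 µM, and without 10 µM replicate 1 it was -0.55 (adjusted p = 1.38e-09), under the 1.5-fold limit. ITGB1 measured 539.6, 541 and 534 CPM in DMSO, 416, 405 and 406 CPM at 5 µM and 278, 394 and 389 CPM at 10 µM, and changed by -0.61 ± 0.12 (adjusted p = 0.0032) on the log2 scale at 10 µM and by -0.46 (adjusted p = 7.28e-09) without replicate 1, again under the limit. ITGA7, the muscle-type laminin receptor chain, was low at 13.4, 12.3 and 12.7 CPM in DMSO, 10.5, 11.3 and 12.6 CPM at 5 µM and 8.78, 8.78 and 7.60 CPM at 10 µM, and its 10 µM change was -0.61 ± 0.11 (adjusted p = 0.0025), or -0.65 without that library. All 3 alpha chains of this class were thus called lower at 10 µM, against 10.5% of all genes, and 2 of the 3 without replicate 1, against 11.0%. With the length and GC trend removed, ITGA3 (-0.33) and ITGA7 (-0.42) were under the fold limit at 10 µM. The fall of ITGB4 was larger than that of any of the 3 alpha chains on the log2 scale.

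Collagen-binding integrins use alpha 1, alpha 2, alpha 10 or alpha 11 with beta 1, and these 4 alpha chains did not move together. ITGA1 measured 365, 382 and 372 CPM in DMSO, 299, 301 and 303 CPM at 5 µM and 71.1, 156 and 168 CPM at 10 µM, with -0.31 ± 0.24 (adjusted p = 0.51) at 5 µM and -1.5 ± 0.25 (adjusted p = 0.0013) at 10 µM on the log2 scale, and -1.21 at 10 µM without replicate 1. ITGA1 shares 5.63% of its exonic bases with PELO and AC022133.1 together on the same strand; PELO was not called, at 0.28 for 10 µM. ITGA10, typical of cartilage, measured 11.6, 10.3 and 10.9 CPM in DMSO, 4.56, 3.20 and 3.24 CPM at 5 µM and 2.35, 3.08 and 2.06 CPM at 10 µM. Its fall was called at both doses, at -1.58 ± 0.20 (adjusted p = 0.00097) and -2.13 ± 0.20 (adjusted p = 4.1e-05), and the doses differed by -0.55 ± 0.20 (adjusted p = 0.12), which is not a call. Without 10 µM replicate 1 the 10 µM value was -2.09. ITGA11, a fibroblast collagen receptor chain, measured 3.04, 3.07 and 3.14 CPM in DMSO, 2.89, 2.27 and 2.98 CPM at 5 µM and 0.991, 1.46 and 1.59 CPM at 10 µM. The 5 µM libraries lay just under the DMSO libraries without a call (-0.19 ± 0.23, adjusted p = 0.71), and the 10 µM libraries lay lower again, at -1.19 ± 0.24 (adjusted p = 0.0039), or -1.02 (adjusted p = 0.0027) without replicate 1.

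ITGA2, the alpha chain of the collagen receptor of platelets and epithelia, went the other way. It measured 184, 196 and 192 CPM in DMSO, 301, 304 and 312 CPM at 5 µM and 131, 304 and 301 CPM at 10 µM, so that every 5 µM library and 10 µM replicates 2 and 3 were above every DMSO library, and 10 µM replicate 1 was below them. With all libraries the differences were 0.68 ± 0.25 (adjusted p = 0.12) at 5 µM and 0.36 ± 0.25 (adjusted p = 0.29) at 10 µM, neither a call. Without 10 µM replicate 1 they were 0.68 (adjusted p = 5.82e-10) and 0.66 (adjusted p = 7.94e-10), both calls in the higher direction. At 5 µM it was also called higher with only the groups compared, and with all libraries kept by DESeq2 (0.68, adjusted p = 0.04) and with the length and GC trend removed (0.70, adjusted p = 0.0069).

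Receptors for the RGD motif of fibronectin and vitronectin are built from alpha 5, alpha 8, alpha V or alpha IIb. ITGA5, the fibronectin receptor chain, measured 360.3, 369.9 and 378 CPM in DMSO, 241, 254 and 241 CPM at 5 µM and 202, 210.4 and 201 CPM at 10 µM. It was called lower at both doses, at -0.59 ± 0.06 (adjusted p = 0.000406) and -0.85 ± 0.06 (adjusted p = 7.82e-06), and the 10 µM value was -0.84 without replicate 1. The 5 µM call stood at 1.504-fold, and it was lost with upper-quartile scaling (-0.58), with a filter of 1 CPM in 3 libraries (-0.58), with the length and GC trend removed (-0.56) and without DMSO replicate 3, 5 µM replicate 1 or 5 µM replicate 3 (-0.58 to -0.57). ITGAV, which pairs with beta 1, 3, 5, 6 or 8, measured 144, 151 and 145 CPM in DMSO, 106, 113 and 117 CPM at 5 µM and 48.9, 109 and 119 CPM at 10 µM, with all treated libraries below DMSO but no call at either dose, at -0.39 ± 0.25 (adjusted p = 0.4) and -0.67 ± 0.25 (adjusted p = 0.067). Without 10 µM replicate 1 the values were -0.39 (adjusted p = 1.15e-05) at 5 µM and -0.37 (adjusted p = 3.21e-05) at 10 µM, both under the fold limit. ITGA8 held 35 counts in the 3 DMSO libraries together, 0 at 5 µM and 18 at 10 µM, all in replicate 3, and was not called with all libraries.

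The beta partners of alpha V split by gene. ITGB3 (chr17:47253846-47311816, plus strand), the vitronectin receptor chain long used as a marker of melanoma progression, measured 199, 209 and 202 CPM in DMSO, 82.0, 81.6 and 86.4 CPM at 5 µM and 29.5, 58.8 and 59.2 CPM at 10 µM. The groups were separate at each step, with -1.29 ± 0.21 (adjusted p = 0.0046) at 5 µM and -2.05 ± 0.22 (adjusted p = 8.9e-05) at 10 µM, or -1.79 without 10 µM replicate 1. In the annotation 51.6% of its exonic bases are shared with a same-strand transcript, AC068234.1, so its reads may be shared with it and its counts are uncertain. ITGB5 measured 358, 351 and 345 CPM in DMSO, 237, 245 and 227 CPM at 5 µM and 156, 154 and 154 CPM at 10 µM, with differences of -0.57 ± 0.06 (adjusted p = 0.00046) at 5 µM, just under the fold limit, -1.18 ± 0.06 (adjusted p = 1.05e-06) at 10 µM and -0.61 ± 0.06 (adjusted p = 0.000419) between the doses. The 10 µM libraries of ITGB5 agreed closely, replicate 1 included (-1.19 without it). ITGB8, which serves to activate latent TGF-beta, measured 89.6, 89.7 and 90.0 CPM in DMSO, 97.6, 98.4 and 99.7 CPM at 5 µM and 59.3, 119 and 122 CPM at 10 µM and was not called, at 0.16 ± 0.21 (adjusted p = 0.62) for 10 µM; without replicate 1 it was 0.42 (adjusted p = 6.24e-07), under the fold limit. ITGB6, the epithelial partner, stayed at or below 0.411 CPM in every library.

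Alpha 4 and alpha 9 bind sites such as those of VCAM1, tenascin and osteopontin. ITGA9 (chr3:37452115-37823514, plus strand) had the largest fall in fold of all called members at both doses. It measured 3.60, 3.23 and 2.65 CPM in DMSO, 0.131, 0.290 and 0.226 CPM at 5 µM and 0.248, 0.115 and 0.183 CPM at 10 µM, or 448, 32 and 27 counts summed over the 3 libraries of each group. The log2 fold changes were -3.85 ± 0.42 (adjusted p = 0.000471) and -4.10 ± 0.42 (adjusted p = 7.31e-05), which is 14.4-fold and 17.2-fold lower, and the doses differed by -0.25 ± 0.43 (adjusted p = 0.76). The treated groups overlapped each other and lay far below DMSO, and without 10 µM replicate 1 the 10 µM value was -4.39. ITGA9 was a minor chain on the length scale, at 0.382 ± 0.0581 CPM per kb in DMSO. ITGA4 measured 55.6, 58.5 and 57.3 CPM in DMSO, 38.6, 41.7 and 39.2 CPM at 5 µM and 16.2, 31.0 and 34.8 CPM at 10 µM, stepping down with dose in every library, with -0.52 ± 0.22 (adjusted p = 0.17) at 5 µM, -1.06 ± 0.22 (adjusted p = 0.0046) at 10 µM and -0.80 at 10 µM without replicate 1.

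The leukocyte integrins were low throughout. ITGB7, the partner of alpha 4 and alpha E on lymphocytes, measured 7.40, 6.48 and 6.29 CPM in DMSO, 16.3, 16.8 and 14.1 CPM at 5 µM and 10.5, 9.49 and 9.23 CPM at 10 µM. It peaked at 5 µM, where it was the 1 member called higher, at 1.22 ± 0.12 (adjusted p = 0.000256), and the 10 µM libraries lay below the 5 µM libraries, at -0.69 ± 0.12 (adjusted p = 0.0068). The 10 µM libraries were still all above DMSO, at 0.53 ± 0.12 (adjusted p = 0.0066), short of the fold limit. On the opposite strand ZNF740 overlaps 42.1% of the ITGB7 exons; ZNF740 measured 76.2, 71.0 and 67.4 CPM in DMSO, 66.7, 72.8 and 70.1 CPM at 5 µM and 69.5, 74.0 and 81.1 CPM at 10 µM and was not called. No source used here gives the strand setting of the authors' counting, so reads of the 2 genes may be mixed, and the part of ZNF740 in the ITGB7 values was not tested.

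ITGAE, the alpha E chain, measured 10.0, 9.07 and 9.46 CPM in DMSO, 10.4, 12.4 and 10.7 CPM at 5 µM and 17.1, 10.8 and 15.4 CPM at 10 µM and was called higher at 10 µM, at 0.60 ± 0.16 (adjusted p = 0.018), a call lost without replicate 1 (0.46, adjusted p = 0.014). Genes on the opposite strand overlap 7.59% of the ITGAE exons, among them HASPIN (listed as GSG2), which was lower at 10 µM, at -1.10 ± 0.12 (adjusted p = 9.25e-05). ITGAX measured 1.19, 1.52 and 1.89 CPM in DMSO, 3.31, 2.44 and 1.97 CPM at 5 µM and 3.99, 2.21 and 2.69 CPM at 10 µM, with 0.95 ± 0.31 (adjusted p = 0.038) at 10 µM and 0.68 (adjusted p = 0.076) without replicate 1. ITGAM held 9 counts in DMSO, 36 at 5 µM and 97 at 10 µM over 3 libraries each, its call rested on replicate 1 (1.42 CPM against 0.346 and 0.204), and without it the adjusted p was 0.13. ITGB2, the common beta chain of this class, measured 3.04, 3.11 and 2.67 CPM in DMSO, 1.86, 3.12 and 2.36 CPM at 5 µM and 3.18, 1.56 and 3.20 CPM at 10 µM, with overlapping groups and no call, and ITGAD stayed at or below 1.01 CPM. The summed CPM of 8 leukocyte markers ranged from 7.18 to 7.80 in vehicle, from 6.14 to 7.40 with 5 µM and from 5.60 to 7.67 with 10 µM, most of it LYZ.

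**Figure D2:**
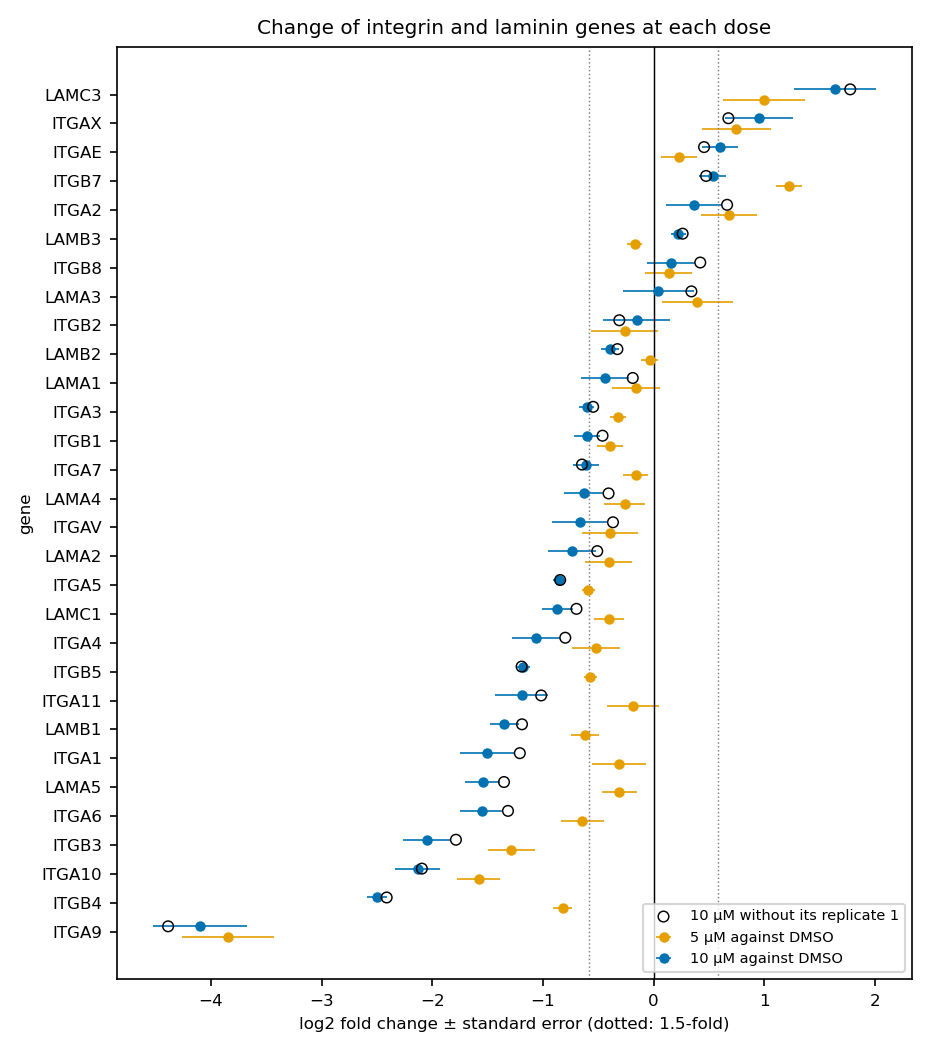
Log2 fold change against DMSO at 5 µM (orange) and 10 µM (blue) for 30 members with a mean of at least 1 CPM in some group, with bars of 1 SE; open circles give the 10 µM value without replicate 1, and dotted lines mark 1.5-fold. ITGA9, ITGB4, ITGA10 and ITGB3 lie at the low end, and the open circles of ITGA2, ITGAV and ITGB8 lie to the right of the value from all libraries.

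Of the 11 tested laminin chains, 5 were called lower at 10 µM against 10.5% of all genes, and 1 higher against 8.57%, a share near the background. Without replicate 1 the counts were 3 lower against 11.0% and 1 higher against 8.17%. Laminin 511, the alpha 5, beta 1, gamma 1 trimer of most mature basement membranes, was the 1 laminin whose 3 chains were each called lower at 10 µM with and without replicate 1. LAMB3, a chain of laminin 332 that did not fall at 10 µM, is printed with them. The sequences are those before the RefSeq start (build GRCh38.p14), cut where an annotated exon begins, written 5′ to 3′ on the strand of the gene. Capitals mark matches on either strand to GGGCGG (the GC box bound by SP1-type factors) or to TGANTCA (the AP-1 site), the first being CCGCCC when read on the other strand.
LAMA5 (chr20:62367313-62367562, minus strand, 250 bases): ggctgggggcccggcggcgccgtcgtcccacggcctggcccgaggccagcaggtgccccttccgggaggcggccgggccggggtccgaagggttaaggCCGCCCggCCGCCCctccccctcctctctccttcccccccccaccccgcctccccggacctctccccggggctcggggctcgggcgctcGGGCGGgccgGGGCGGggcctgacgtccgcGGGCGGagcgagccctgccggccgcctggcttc
LAMB1 (chr7:108003256-108003411, minus strand, 156 bases): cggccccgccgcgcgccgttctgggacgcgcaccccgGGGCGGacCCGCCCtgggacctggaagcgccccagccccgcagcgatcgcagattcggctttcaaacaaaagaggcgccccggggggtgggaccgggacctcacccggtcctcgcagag
LAMC1 (chr1:183023170-183023419, plus strand, 250 bases): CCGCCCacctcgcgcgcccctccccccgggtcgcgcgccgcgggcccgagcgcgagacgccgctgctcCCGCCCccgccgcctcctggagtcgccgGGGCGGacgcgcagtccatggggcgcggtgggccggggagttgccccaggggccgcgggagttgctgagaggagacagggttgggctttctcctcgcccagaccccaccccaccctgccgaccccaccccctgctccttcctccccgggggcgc
LAMB3 (chr1:209651395-209651624, minus strand, 230 bases): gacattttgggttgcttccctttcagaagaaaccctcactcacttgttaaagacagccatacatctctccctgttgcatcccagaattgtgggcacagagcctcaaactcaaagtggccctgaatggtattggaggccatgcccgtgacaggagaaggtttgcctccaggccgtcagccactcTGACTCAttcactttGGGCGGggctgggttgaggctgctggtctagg

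In the full windows of 250 bases the LAMA5, LAMB1 and LAMC1 starts held 5, 4 and 3 GC-box matches and no AP-1 match, with GC contents of 82.8%, 70.4% and 79.6%, while this LAMB3 start, 1 of 3 listed, held 1 GC box and 1 AP-1 match at 54.0% GC. The other LAMB3 starts held 1 GC box each and no AP-1 match, at 60% and 64% GC. Neighbouring GC-box matches may share bases. Of the other members called lower at 10 µM with a window, ITGA1, ITGA4, ITGA10, ITGA11, LAMA2 and LAMA4 held 0 GC-box matches. ITGA5 held 1, and ITGA6, ITGB1 and ITGB5 held up to 3 in a window. ITGA2, not called with all libraries, held 4. The part of these matches in the changes was not tested. Windows were found for 26 of the 38 members (33 windows), and 51.5% of these held a GC box, against 42.6% of 35116 windows of all genes. AP-1 matches stood in 6.06% of the member windows, those of LAMB3 and LAMA3, against 6.57% of all windows, a share near the background. The TATA box (TATAAA) matched in 6.06% of the member windows against 10.7% of all, the E-box (CACGTG) in 3.03% against 6.34%, and the cAMP response element (TGACGTCA) in 0% against 1.65%.

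LAMA5 (chr20:62307955-62367312, minus strand) measured 804, 831 and 829 CPM in DMSO, 653, 703 and 633 CPM at 5 µM and 199, 320.2 and 324 CPM at 10 µM. The 5 µM libraries lay below DMSO without a call (-0.31 ± 0.16, adjusted p = 0.26), and the fall came at the higher dose, at -1.55 ± 0.16 (adjusted p = 7.1e-05) against DMSO and -1.24 ± 0.16 (adjusted p = 0.0015) against 5 µM. Without 10 µM replicate 1 the change was -1.35 (adjusted p = 6.52e-13). LAMB1 (chr7:107923799-108003255, minus strand) measured 1124, 1157 and 1127 CPM in DMSO, 729, 760.4 and 728 CPM at 5 µM and 338, 494 and 504 CPM at 10 µM, and was called at both doses, at -0.62 ± 0.13 (adjusted p = 0.015) and -1.35 ± 0.13 (adjusted p = 5.12e-05). The difference between doses, -0.73 ± 0.13 (adjusted p = 0.0087), was a call only with replicate 1, since without it the value was -0.57, just under the fold limit. LAMC1 (chr1:183023460-183145592, plus strand), the gamma chain of nearly all laminins, measured 994, 1013 and 996 CPM in DMSO, 741, 767 and 759 CPM at 5 µM and 405, 616 and 621 CPM at 10 µM, with -0.87 ± 0.14 (adjusted p = 0.0011) at 10 µM and -0.70 (adjusted p = 2.42e-11) without replicate 1. For all 3 chains every treated library was below every DMSO library, and the 3 groups did not overlap.

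LAMA4, the alpha chain of vascular and mesenchymal laminins, measured 157, 172 and 167 CPM in DMSO, 127, 142 and 145 CPM at 5 µM and 70.8, 125 and 125 CPM at 10 µM, and LAMA2, that of muscle and nerve, measured 13.2, 11.2 and 13.7 CPM in DMSO, 9.94, 9.43 and 9.36 CPM at 5 µM and 4.96, 7.75 and 10.1 CPM at 10 µM. Both were called lower at 10 µM, at -0.63 ± 0.18 (adjusted p = 0.024) and -0.74 ± 0.22 (adjusted p = 0.024), and both calls were lost without replicate 1, at -0.41 and -0.51. LAMB2 measured 221, 229 and 227 CPM in DMSO, 217, 232 and 210.4 CPM at 5 µM and 155, 178 and 182 CPM at 10 µM, level with DMSO at 5 µM (-0.04 ± 0.08, adjusted p = 0.84) and lower by less than 1.5-fold at 10 µM (-0.39 ± 0.08, adjusted p = 0.0038). With the length and GC trend removed, the edgeR value of LAMB2 at 10 µM was -0.13 (adjusted p = 0.07). LAMA1 was low and not called at either dose, at -0.44 ± 0.22 (adjusted p = 0.15) for 10 µM.

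LAMB3 and LAMA3, which belong to the anchoring laminin of epithelia, were not called at 10 µM. LAMB3 (chr1:209614870-209652466, minus strand) measured 106, 105 and 105 CPM in DMSO, 92.3, 96.1 and 92.8 CPM at 5 µM and 115, 127 and 126 CPM at 10 µM, so that all 5 µM libraries were below and all 10 µM libraries above the DMSO libraries. The differences from DMSO were -0.17 ± 0.07 (adjusted p = 0.15) and 0.22 ± 0.07 (adjusted p = 0.028), and the doses differed by 0.39 ± 0.07 (adjusted p = 0.0074), each under 1.5-fold. LAMA3, at 3.57 ± 0.505 CPM in DMSO and 3.66 ± 1.59 CPM at 10 µM, had overlapping groups and a difference of 0.04 ± 0.32 (adjusted p = 0.94). LAMC3, a rare gamma chain, was the 1 laminin called higher. It measured 0.443, 0.411 and 0.449 CPM in DMSO, 0.613, 1.03 and 0.965 CPM at 5 µM and 1.07, 1.38 and 1.61 CPM at 10 µM, with 1.64 ± 0.37 (adjusted p = 0.0074) at 10 µM and 1.78 (adjusted p = 0.0031) without replicate 1, and stood at 0.179 ± 0.0354 CPM per kb at 10 µM. LAMB4 totalled at most 17 counts in any group.

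**Figure D3:**
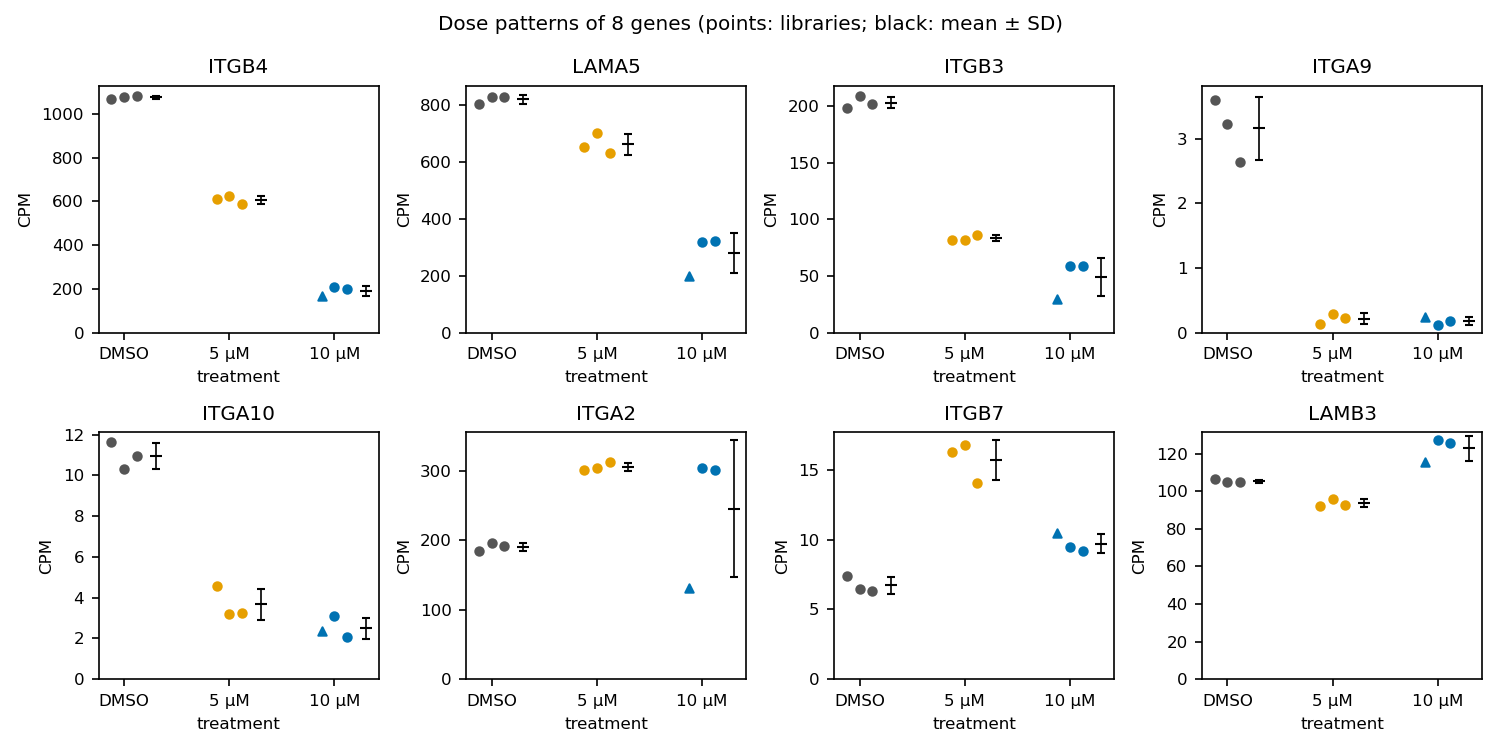
CPM (linear axes from 0) of 8 members by treatment, 1 point per library with the mean ± SD in black; the triangle is 10 µM replicate 1. ITGB4 stepped down at each dose, LAMA5 fell mainly at 10 µM, and ITGA9 and ITGA10 fell mainly at 5 µM. ITGB7 peaked at 5 µM, and ITGA2 at 10 µM is split between replicate 1 and the other 2 libraries.

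Chains of 1 class fell by unequal amounts, so their shares of the class moved. On the CPM per kb scale the 8 beta subunits summed to 357 in DMSO, 224 at 5 µM and 131 at 10 µM. ITGB4 took 44.5% ± 0.32 (SD, n = 3) of that sum in DMSO, 40.1% ± 0.56 at 5 µM and 21.5% ± 0.96 at 10 µM, and ITGB1 took 25.1% ± 0.11, 30.4% ± 0.64 and 44.6% ± 1.7. ITGB4 was therefore above ITGB1 in DMSO and below it at 10 µM in every library. By the longest transcript the order was the same at these points (182 against 142 CPM per kb in DMSO, 32.1 against 93.4 at 10 µM), but at 5 µM the order depended on the length, with ITGB4 ahead by exons and ITGB1 ahead by longest transcript (108 against 103).

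Among alpha subunits, ITGA6 held 30.2% ± 0.55 of the summed CPM per kb in DMSO, 24.4% ± 0.4 under 5 µM and 17.7% ± 2.4 under 10 µM, and ITGA2 held 8.34% ± 0.13, 16.9% ± 0.37 and 18.2% ± 4.4. The ITGA2 share was higher than in DMSO in all 6 treated libraries, 10 µM replicate 1 included (lowest 13.1%). In that replicate the level of ITGA2, 131 CPM, was nevertheless below the 184 to 196 CPM of DMSO. The alpha sum was 289 CPM per kb in DMSO (mean) and 126 to 186 at 10 µM. For laminin alpha chains the make-up held at 5 µM and moved at 10 µM. LAMA5 took 77.8% ± 0.24, 77.1% ± 1.4 and 65.0% ± 1.3, and LAMA4 19.4% ± 0.48, 19.8% ± 1.3 and 30.2% ± 0.98. For beta chains LAMB1 went from 71.6% ± 0.21 to 63.6% ± 0.34 and 51.3% ± 3.9 and LAMB3 from 11.6% ± 0.22 to 14.0% ± 0.14 and 25.0% ± 2.4. LAMC1 made up at least 97.3% of the gamma chains in every library. These shares are descriptions of transcripts and not of assembled proteins.

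**Figure D4:**
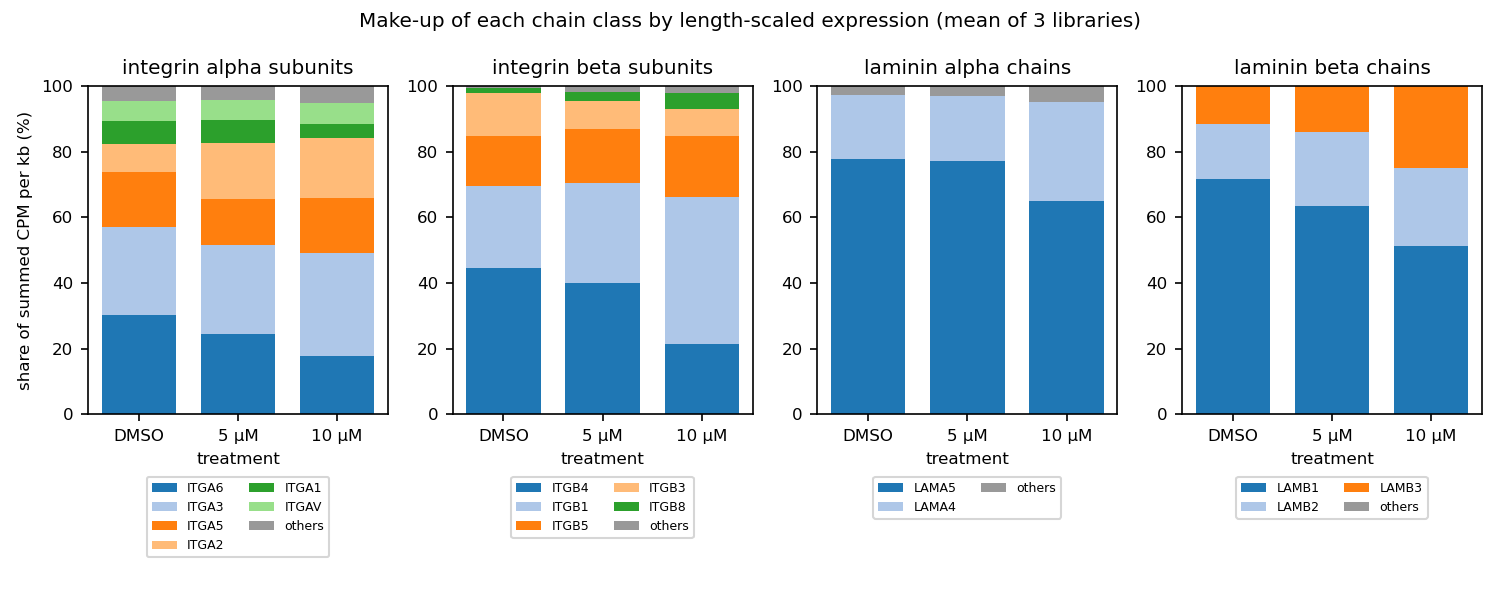
Share of the summed CPM per kb taken by each chain, in percent, as the mean of 3 libraries, for integrin alpha and beta subunits and for laminin alpha and beta chains; chains under 3% in all groups are pooled as others. The ITGB4 segment shrinks and the ITGB1 segment grows with dose, and the LAMB3 segment is largest at 10 µM.

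Read by receptor, 15 of the 24 known integrin pairs had both chains at 1 CPM per kb or more in DMSO, and 13 of these 15 had at least 1 chain called lower at 10 µM. The pairs share chains, and ITGB1 alone is in most of the 15, so the 13 are not separate results. No share for pairs of other genes was computed. In 8 pairs both chains were called lower, of which 7 contain ITGB1, so that without replicate 1, where ITGB1 missed the fold limit, the count of 8 became 1, namely alpha 6 beta 4, and the count of 13 became 10. The expressed pairs with no chain called lower were alpha V beta 8 and alpha E beta 7. Of 14 laminin trimers, 6 had every chain at 1 CPM per kb or more, and each of the 6 had at least 1 chain called lower at 10 µM with and without replicate 1. Each of the 6 contains LAMC1, itself called lower both ways, so this count follows from 1 gene. All 3 chains were called lower for laminins 211, 411 and 511 with all libraries, and for laminin 511 alone without replicate 1. Laminin 332 was not among the 6, since LAMA3 stood at 0.243 ± 0.0344 CPM per kb in DMSO.

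Other adhesion genes were read from 4 lists. Their counts are read beside the shares of all tested genes, 2.72% lower and 2.14% higher at 5 µM and 10.5% lower and 8.57% higher at 10 µM. Of 21 tested cytoplasmic partners of integrins, 2 were called lower at 5 µM and 4 at 10 µM. The 3 with the smallest p at 10 µM were TNS3, a tensin that links beta tails to actin (160.2 ± 8.25 CPM in DMSO against 44.6 ± 8.60 CPM at the higher dose, -1.85 ± 0.13 (adjusted p = 5.97e-06) on the log2 scale), the kinase SRC (-0.70 ± 0.08, adjusted p = 9.68e-05) and vinculin, VCL (-1.01 ± 0.13, adjusted p = 0.000355). The other call at 10 µM was LIMS2, of the PINCH adaptor family, at -0.74 ± 0.24 (adjusted p = 0.038).

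Of 10 tested matrix and counter-receptor ligands of integrins, 3 were called lower at each dose (against 2.72% and 10.5% of all genes), and 2 were higher at 10 µM (against 8.57%). Fibronectin, FN1, the ligand of alpha 5 beta 1, went from 782 ± 10.9 to 383 ± 11.0 and 139 ± 28.1 CPM, a 10 µM change of -2.49 ± 0.13 (adjusted p = 1.19e-06). The other genes called lower at 10 µM were tenascin C, TNC (-1.05 ± 0.15, adjusted p = 0.000679), and the leukocyte counter-receptor ICAM1 (-0.97 ± 0.07, adjusted p = 6.58e-06). At 5 µM the genes called lower were FN1, ICAM1 and SPP1 (-1.12 ± 0.14, adjusted p = 0.001). SPP1 was not called at 10 µM (-0.44 ± 0.14, adjusted p = 0.033). The pair called higher at 10 µM were the matricellular ligands CCN2, listed as CTGF (1.88 ± 0.07, adjusted p = 1.41e-07), and CCN1, listed as CYR61 (1.5 ± 0.08, adjusted p = 1.44e-06). Of 10 other basement membrane components and laminin receptors, 4 were called lower at 5 µM (against 2.72%) and 5 at 10 µM (against 10.5%). The smallest p values belonged to the collagen IV chains COL4A2 (-1.95 ± 0.09, adjusted p = 5.83e-07) and COL4A1 (-2.17 ± 0.16, adjusted p = 8.14e-06) and to the laminin alpha 5 receptor BCAM (-1.27 ± 0.10, adjusted p = 1.21e-05), and the other calls were nidogen, NID1 (-1.97 ± 0.20, adjusted p = 5.81e-05), which bridges laminin and collagen IV, and perlecan, HSPG2 (-0.95 ± 0.25, adjusted p = 0.014). LIMS2, TNC, ICAM1, SPP1, NID1, HSPG2 and the later COL17A1 and FBLN5 were named after their values were seen, to complete the counts. The median log2 fold change at 10 µM was -0.23 for the cytoplasmic partners, -0.36 for the ligands and -0.64 for the basement membrane list, beside 0.0107 for all genes.

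Of 8 tetraspanins and hemidesmosome components, COL17A1, the hemidesmosomal collagen, was called higher at 5 µM (0.62 ± 0.16, adjusted p = 0.035), and edgeR called 0 at 10 µM, where 3 were lower and 2 higher at an unadjusted p under 0.05. The smallest p values at 10 µM were those of the tetraspanins CD82 (0.50 ± 0.11, adjusted p = 0.008), CD9 (-0.39 ± 0.12, adjusted p = 0.03) and CD81 (-0.37 ± 0.13, adjusted p = 0.054). Without 10 µM replicate 1 every call named in these 4 lists at 10 µM was kept, and FBLN5 was added as higher among the ligands. Sums over markers of other cell types also differed between the groups: 5 keratinocyte markers summed to 49.4 to 56.7 CPM in DMSO and 67.1 to 97.7 at 10 µM, mostly KRT10, and 4 endothelial markers to 4.16 to 5.55 and 10.4 to 16.3 CPM, with KDR the highest, and their part in the values of the members was not tested.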

How the data were processed

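Total RNA of A375 cells was sequenced as strand-specific libraries. The labels describe oligo-dT selection while the series' design text describes ribosomal RNA depletion. Per the submitters' processing notes, reads were processed with Bowtie2 2.1.0 and RSEM 1.2.15 on hg38; no source used here gives the gene annotation or the strand setting of the counting. The authors deposited RSEM expected counts per gene symbol, which were rounded to whole numbers here. CPM used column totals scaled by TMM factors, and lengths, gene positions and overlaps came from GENCODE 29 (GRCh38), which matched 23900 of 26475 symbols.

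Genes passing filterByExpr (16417) were fitted with edgeR 4.0.16 (quasi-likelihood F test, R 4.3.3) over all 9 libraries and 3 groups, with Benjamini-Hochberg adjustment over all of them, and each SE was taken from the estimate and its F statistic. The fit was tested on simulated data. DESeq2 1.42.0, limma 3.58.1 (voom), other scalings and filters, a replicate block, a fit on the groups compared alone, removal of a length and GC trend and omission of each library were alternatives. Tables and plots used Python 3.11.15, pandas 2.3.3, numpy 2.4.6 and matplotlib 3.10.9.

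The members and lists were chosen with earlier results of these data known. Any member could be named, called members reaching a mean of 1 CPM in some group were given library by library, and from each adhesion list the 3 genes with the smallest p at 10 µM were named. No p-value was computed over the members as a set, and a two-sided exact permutation of 3 against 3 libraries cannot go below 0.1 for a single value. The series' design text calls the libraries biological replicates without naming cultures, so p-values measure the spread between these libraries. Same-numbered libraries did not deviate together (correlations of -0.0493 to 0.0322), so numbers were not used as pairs. RefSeq promoter windows (GRCh38.p14) were used for 26 members, and those of ITGA3, ITGA7, ITGA9, ITGAD, ITGAL, ITGAX, ITGB2, ITGB3, ITGB4, LAMA1 and LAMC3 were among those not used here. The values of 1 member are not reported here. Total counts per library (42483091 to 51298130) set the precision of low genes.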

Additional observations from a re-analysis of the deposited data

Results flagged for a closer look

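For 13 members the effects of the 2 doses differed when 10 µM was tested directly against 5 µM (edgeR, adjusted p under 0.05), 12 being lower and 1 higher at 10 µM. By the same rule 908 of all 16417 tested genes were lower and 471 higher. On the log2 scale as 10 µM minus 5 µM, the integrin alpha subunits differed by -1.20 (ITGA1), -1.01 (ITGA11), -0.91 (ITGA6), -0.45 (ITGA7), -0.28 (ITGA3) and -0.26 (ITGA5). The beta subunits differed by -1.68 (ITGB4), -0.69 (ITGB7) and -0.61 (ITGB5). The laminin chains differed by -1.24 (LAMA5), -0.73 (LAMB1), -0.36 (LAMB2) and 0.39 (LAMB3), the last being the 1 higher value. ITGB7 is the 1 gene of the 13 that was above DMSO at 5 µM.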

How the results depend on the processing

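No log2 fold change that was a call changed sign in its own comparison under the alternatives run, and the counts lower than DMSO kept within 1.5 times of 6 (5 µM) and 18 (10 µM) in all of them, with 13 of the 18 called lower also after removal of the length and GC trend (ITGA3, ITGA7, ITGB1, LAMA2 and LAMA4 were lost). Calls in the higher direction were less stable. The 1 member higher at 5 µM became 2 with DESeq2, 2 with the length and GC trend removed, 3 when only the 2 groups compared were fitted, and 4 with that trend removed and 10 µM replicate 1 left out, an alternative chosen after seeing the data. The 4 higher at 10 µM became 2 with limma-voom, 2 with the replicate block and 2 with only the groups compared. Between the doses, the 8 lower became 4 with only the groups compared, and the 0 higher became 1 with no limit on the fold (LAMB3) and 1 with the trend removed and 10 µM replicate 1 left out. The cause was not tested.

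Leaving out 1 library at a time gave 4 to 8 lower and 1 to 3 higher at 5 µM, 14 to 19 lower and 1 to 4 higher at 10 µM, and 5 to 9 lower and 0 to 1 higher between the doses. The counts moved by over 1.5 times were the higher calls at 5 µM without 10 µM replicate 1 (3), the higher calls at 10 µM without DMSO replicate 2 or 3 (1), without 5 µM replicate 2 (2) or without 10 µM replicate 1 or 3 (2), the lower calls between doses without any one 5 µM library (5), and the higher calls between doses without 10 µM replicate 1 (1, ITGA8). With the replicate number as a block, 6 members were lower and 1 higher at 5 µM, 19 and 2 at 10 µM, and 7 and 0 between doses, although the numbers did not pair the libraries. Over all genes, 425 were lower and 233 higher between doses, against 353 and 299 with the length and GC trend removed. Low counts limited ITGAM, ITGA8, ITGAD, ITGB6 and LAMC3, and 3 libraries a group limited all tests.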
